A study of Rattus norvegicus with 156 samples.

Results

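The major histocompatibility complex (MHC) class II presentation genes described here are Cd74, RT1-Ba, RT1-Bb, RT1-Da, RT1-Db1, RT1-DMa and RT1-DMb. They were chosen by name, as all probe sets annotated to one of these 7 symbols on the Affymetrix rat U34 arrays A, B and C. This gave 29 of 26202 probe sets that are no controls, and 7 of 10969 genes with a symbol. Of the 29, 21 lay on array A, 1 on B and 7 on C. Cd74 had 6 probe sets, RT1-Ba 5, RT1-Bb 7, RT1-Da 2, RT1-Db1 4, RT1-DMa 2 and RT1-DMb 3. The probe set with the highest average log2 value stands for a gene and is called probe set 1, and the others are described for the ligated ganglia and the tissue levels.

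The rats had their L5 and L6 spinal nerves tied (spinal nerve ligation, SNL), a surgical model of neuropathic pain, or had these nerves exposed but left untied (sham), or had no surgery (naive). Naive and SNL rats received either saline vehicle or gabapentin (GPN), a drug given for epilepsy and for neuropathic pain, by intraperitoneal injection at 100 mg per kg once daily for 7 days, and sham rats received vehicle. The 5 groups were therefore naive, naive GPN, sham, SNL and SNL GPN, and tissue was taken 19 to 21 days after surgery. SNL rats entered the study only if paw withdrawal thresholds on the injured side had dropped on days 12 to 14. RNA of 4 to 6 rats of 1 group and 1 tissue was pooled, and each of the 52 pools was hybridised to all 3 arrays, 156 arrays in all. The compartments were the L4, L5 and L6 ganglia of the dorsal roots (dorsal root ganglia, DRG), the mid thigh sciatic nerve and the hemisected spinal cord, each ipsilateral and contralateral to the injury, and whole brain. The DRG contain the somata of sensory neurons, and the L4 DRG lies next to the ligated levels with its own spinal nerve untied. The sources used here name no strain, sex or age, and do not say whether the same rats gave several tissues.

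Class II molecules are pairs of an alpha and a beta chain that show peptides from engulfed or membrane proteins to CD4+ T cells. RT1-Ba and RT1-Bb encode the alpha and beta chains of the rat RT1-B molecule, the counterpart of human HLA-DQ, and RT1-Da and RT1-Db1 those of RT1-D, the counterpart of HLA-DR. Cd74, the invariant chain, occupies the groove of new class II pairs and guides them to endosomes, where RT1-DMa and RT1-DMb form the exchange factor that swaps the last invariant chain fragment for a peptide. In nervous tissue these genes are mainly known from macrophages, microglia and other antigen-presenting cells, and their promoters share the X and Y boxes, through which the coactivator Ciita acts.

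The promoters are shown for the X and Y boxes named above, and the part of these boxes in the changes after ligation was not tested. RefSeq promoter sequence of the GRCr8 assembly, 300 bases around each start site, was matched for 6 of the 7 genes, all but RT1-DMb, and 5 stretches of 53 bases from chromosome 20 are printed 5′ to 3′ on the gene's own strand. Capitals mark the letters GNNACNGAT, searched for as the X box, and TGATTGG, searched for as the Y box with its inverted CCAAT. The letters were chosen after these sequences had been seen, and both strands were searched.
RT1-Ba, chr20:4576972-4577024, plus strand: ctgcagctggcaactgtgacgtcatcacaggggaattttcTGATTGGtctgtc
RT1-Bb, chr20:4604169-4604221, minus strand: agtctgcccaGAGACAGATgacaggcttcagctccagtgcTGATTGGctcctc
RT1-Da, chr20:4515324-4515376, plus strand: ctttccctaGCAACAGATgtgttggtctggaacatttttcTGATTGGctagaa
RT1-Db1, chr20:4560232-4560284, minus strand: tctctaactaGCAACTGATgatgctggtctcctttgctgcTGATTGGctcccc
RT1-DMa, chr20:4712389-4712441, minus strand: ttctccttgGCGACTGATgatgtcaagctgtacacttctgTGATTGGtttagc
In RT1-Bb and RT1-Db1 21 bases lay between the X and Y letters, and in RT1-Da and RT1-DMa 22 bases. The RT1-Ba promoter held the Y letters but not these X letters, and the Cd74 promoter, which is not shown, held neither. Both sets of letters, in this order on 1 strand and within 40 bases of each other, occurred in 4 of the 6 member promoters and in 19 of 33469 promoters of the table (0.0568%). On either strand the X letters occurred in 7.83% of all promoters and the Y letters in 7.06%. A match of letters is a description of the sequence, and binding was not measured.

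Signals are the deposited array intensities after quantile normalisation within array type and compartment, in arbitrary units, and changes are on the scale of log2(signal + pseudocount). The SNL and SNL GPN pools (ligated) were compared with the naive, naive GPN and sham pools (unligated) by limma, with a threshold of 0.05 on p-values adjusted after Benjamini and Hochberg over every probe set tested. Each group gave 1 pool per compartment, so the spread behind each p-value is that between pools of different treatments. Median signals of whole arrays ranged from 13 to 62.2 on array A, which carries most members, and 2% trimmed means of the A arrays differed by up to 4.10-fold before normalisation. Atf3, a marker of axon injury used here to check the labels, lay at 485 and 515.8 in the ligated ipsilateral L5 DRG pools against 46.8 to 101.5 in the unligated ones, in the direction the labels give.

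In the ipsilateral L5 DRG all 7 genes rose after ligation, by 1.90-fold for RT1-DMa to 8.77-fold for Cd74, where 6.75% of all 16746 probe sets tested rose and 8.88% fell. The 7 genes had a median log2 change of 1.93, against −0.00 for all probe sets. Both ligated pools lay above all unligated pools for all 7 genes. Of all probe sets tested here, 23.5% had the ligated pools above and 26% had them below. In a pool of whole ganglia more cells of a type and more RNA per cell cannot be told apart.
The invariant chain gene Cd74 had a signal of 105 in the naive pool, 147.5 in naive GPN, 310.5 in the sham pool, 1655 in SNL and 1416 in SNL GPN. Both ligated pools lay above all 3 unligated pools, and sham was the highest of the latter. The Cd74 log2 change was 3.13 ± 0.39 (SE, 2 against 3 pools; limma adjusted p = 0.00348), and only 0.0597% of probe sets had a larger rise.
For the RT1-B molecule, RT1-Ba had a signal of 47.6 in the naive pool, 131 in naive GPN, 168.4 in the sham pool, 660.3 in SNL and 569.1 in SNL GPN. RT1-Bb, its beta chain partner, had signals of 57.7, 73.7, 81.1, 272.6 and 296.9 in the same order of pools. The chains did not overlap between ligated and unligated pools, and the naive pool was lowest for both. The log2 change was 2.51 ± 0.44 for RT1-Ba (limma adjusted p = 0.0118) and 1.93 ± 0.16 for RT1-Bb (limma adjusted p = 0.00118).
For the RT1-D molecule, RT1-Da had a signal of 223.6 in the naive pool, 231.2 in naive GPN, 415 in the sham pool, 1215 in SNL and 1091 in SNL GPN. RT1-Db1 had signals of 400.4, 433.5, 564.9, 1221 and 1322 in that order. Again both ligated pools were above the sham pool, which was above both naive pools. The log2 change was 2.03 ± 0.26 for RT1-Da (limma adjusted p = 0.00379) and 1.45 ± 0.16 for RT1-Db1 (limma adjusted p = 0.00229).
For the peptide exchange factor, RT1-DMa had a signal of 96.3 in the naive pool, 86.9 in naive GPN, 98.2 in the sham pool, 193.5 in SNL and 174.2 in SNL GPN. RT1-DMb had signals of 39.6, 53.2, 57.2, 211.2 and 180.3 in that order. The 3 unligated RT1-DMa pools lay close together, and the ligated pools of both genes were separate from them. The log2 change was 0.93 ± 0.13 for RT1-DMa (limma adjusted p = 0.00536), the smallest of the 7, and 1.86 ± 0.18 for RT1-DMb (limma adjusted p = 0.00161). With sham as the only unligated pool, 0 of the 7 genes and 0 probe sets of the whole arrays passed, although all 7 SNL signals exceeded sham.

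**Figure D1:**
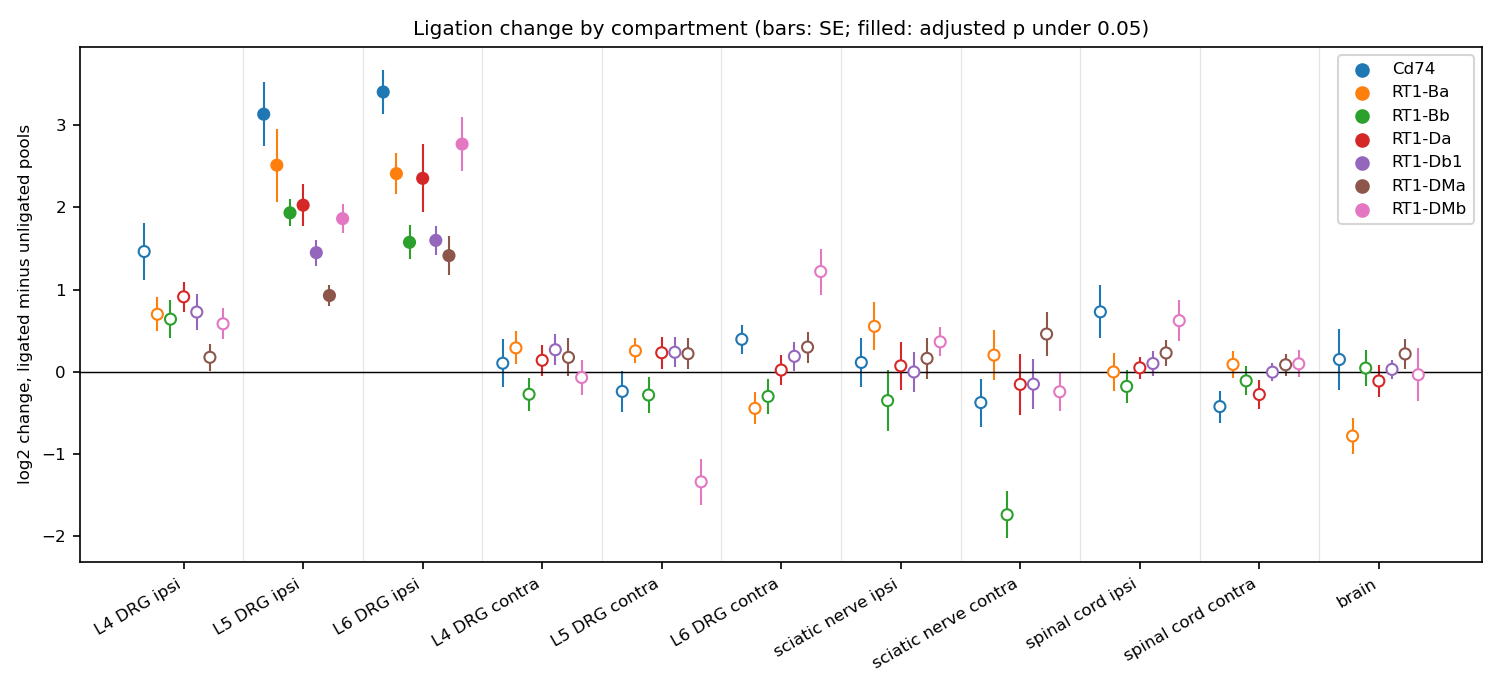
The log2 change between ligated and unligated pools (vertical axis) is plotted for the 7 genes in the 11 compartments (horizontal axis), with bars for the standard error and filled points for an adjusted p under 0.05. Filled points appear in the ipsilateral L5 DRG, between 0.93 and 3.13, and in the ipsilateral L6 DRG, between 1.41 and 3.40, and in no other compartment.

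At the second ligated level, the ipsilateral L6 DRG, all 7 genes rose as well, by 2.66-fold for RT1-DMa to 10.6-fold for Cd74, where 4.37% of 16901 probe sets rose and 4.22% fell. The median log2 change of the 7 genes was 2.35, against −0.00 for all probe sets. Both ligated pools lay above all unligated pools for all 7 genes here too. This held for 21.6% of all probe sets tested, and 20.6% had the ligated pools below.
Cd74 had a signal of 112.7 in the naive pool, 99.1 in naive GPN, 188.1 in the sham pool, 1501 in SNL and 1329 in SNL GPN. Its ligated pools were far above the unligated ones, with a log2 change of 3.40 ± 0.26 (limma adjusted p = 0.000635).
RT1-Ba signals were 89.2, 115.5, 116.1, 767.5 and 452.3 in the same order of pools. RT1-Bb signals were 45.3, 63.3, 66.1, 200.6 and 166.7. Both RT1-B chains were high in the ligated pools without overlap, with log2 changes of 2.41 ± 0.25 (limma adjusted p = 0.00212) and 1.58 ± 0.21 (limma adjusted p = 0.00514).
RT1-Da signals were 170.3, 160.2, 235, 1685 and 561.2. RT1-Db1 signals were 348.5, 311.2, 393.1, 1185 and 967.5. RT1-Da had the widest gap between the 2 ligated pools of the 7 genes, and its log2 change was 2.35 ± 0.41 (limma adjusted p = 0.0147), while that of RT1-Db1 was 1.60 ± 0.17 (limma adjusted p = 0.00256).
RT1-DMa signals were 63.3, 81.3, 48.3, 197.8 and 159.2. RT1-DMb signals were 40.3, 17.5, 40.02, 285.9 and 208.1. Both exchange factor genes were higher in each ligated pool than in any unligated one, with log2 changes of 1.41 ± 0.23 (limma adjusted p = 0.0116) and 2.77 ± 0.32 (limma adjusted p = 0.00343). Without the normalisation, on the deposited scale, the 7 genes kept their direction in the L6 DRG, but only Cd74 passed (3.15, limma adjusted p = 0.00193), and 86 probe sets of the whole arrays passed instead of 1451. With sham as the only unligated pool 5 of the 7 passed in L6, without RT1-Bb and RT1-Da (limma adjusted p = 0.0577 and 0.138).

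In the ipsilateral L4 DRG, next to the ligated levels, 0 of 7 genes passed the limma test, where 0.0418% of all 16762 probe sets did. At an unadjusted p under 0.05 there were 6 of 7, against 14.3% of all probe sets. The direction was upward for all 7 genes, with a median log2 change of 0.70, and in 6 of them both ligated pools lay above all unligated pools, which held for 15.4% of all probe sets tested. Of the members' probe sets 22 were tested in the L4 DRG, all with a positive change, and 0 passed. The filter admits probe sets that are high in both ligated pools alone, so this count of direction is not independent of it.
Cd74 had a signal of 122.7 in the naive pool, 107.4 in naive GPN, 207.8 in the sham pool, 572.8 in SNL and 274 in SNL GPN. The SNL pool stood well above the SNL GPN pool, which was closer to sham. The L4 SNL pool also stood apart for other genes. Ckm, a muscle enzyme gene, had a signal of 1183 there, 38.3 in SNL GPN and 35.5 to 130 in the unligated pools, and the axon injury gene Atf3 had 226.6, 119.6 and 48.3 to 77.7. Of the 10 axon injury genes 1 rose in the L4 DRG, with a list median of 1.22, and the muscle markers had a median of 1.27 with 0 passing. With the muscle markers as a covariate 0 of 7 members passed, as without it. The parts of muscle and of axon injury in the L4 values were not tested. The Cd74 log2 change was 1.46 ± 0.34 (limma adjusted p = 0.132).
RT1-Da signals were 186.1, 190.9, 271.1, 443.2 and 371.8, and the log2 change was 0.91 ± 0.18 (limma adjusted p = 0.0998), the lowest adjusted p of the 7. RT1-DMa was the gene whose pools overlapped, with signals of 89.0, 80.7, 69.5, 100.0 and 81.9 and a log2 change of 0.18 (limma adjusted p = 0.688). RT1-Ba (0.70), RT1-Bb (0.64), RT1-Db1 (0.73) and RT1-DMb (0.58) lay between these on the log2 scale, with adjusted p of 0.197 to 0.274.
On the deposited scale Cd74 (1.36, limma adjusted p = 0.0107) and RT1-Db1 (1.34, limma adjusted p = 0.00643) passed in the L4 DRG. On that scale the median of all probe sets was itself 0.49 higher in the ligated L4 pools, and this shift differed between arrays. On array A, which carries Cd74 probe set 1, array medians were 27.9 to 30.3 in ligated and 26.9 to 35.4 in unligated pools. On array C, which carries RT1-Db1 probe set 1, they were 51.8 to 53.3 and 18 to 25.7. The part of array scale in either change was not tested.

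Probe sets of one gene agreed in direction in the ligated ganglia but differed in size. In the L5 DRG 26 of the 29 were tested, all 26 had a positive change and 22 passed the limma test, with a median log2 change of 2.07. In the L6 DRG 25 were tested, all 25 were positive and 21 passed, with a median of 2.41. The filter asked for 2 pools above the 40th percentile, so a weak probe set could enter through the 2 ligated pools alone. RT1-Bb probe set 5 did so, passing that percentile only in the ligated pools of both ganglia. Its L5 signals were 4.62 to 8.48 in unligated and 70.7 and 75.7 in ligated pools. The counts of direction are therefore not independent of the filter.
The largest change was that of Cd74 probe set 6 in the L6 DRG, at 4.36, with a mean of 450.8 in the ligated pools and 21.5 in the unligated ones. RT1-Db1 probe sets 2 and 3 changed by 3.03 and 2.54 in the L5 DRG and by 3.06 and 2.71 in the L6 DRG, more than the brighter probe set 1. RT1-DMa probe set 2 changed by 1.67 and 1.71, also more than probe set 1.
Each ganglion had 4 tested probe sets that did not pass. Cd74 probe set 3 changed by 0.63 in L5 (limma adjusted p = 0.182) and 1.28 in L6 (limma adjusted p = 0.0933), and Cd74 probe set 5 by 0.05 and 0.25. RT1-Ba probe set 4 changed by 0.41 and 0.08, RT1-Db1 probe set 4 by 0.86 in L5, and RT1-Da probe set 2 by 1.27 ± 0.90 in L6 (limma adjusted p = 0.441). RT1-Ba probe set 5 and RT1-Bb probe set 6 passed the 40th percentile of their array in 0 of 52 pools and RT1-Bb probe set 7 in 2. Class II chains of one kind have related sequences, and hybridisation of one gene's RNA to another's probe set was not tested.

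**Figure D2:**
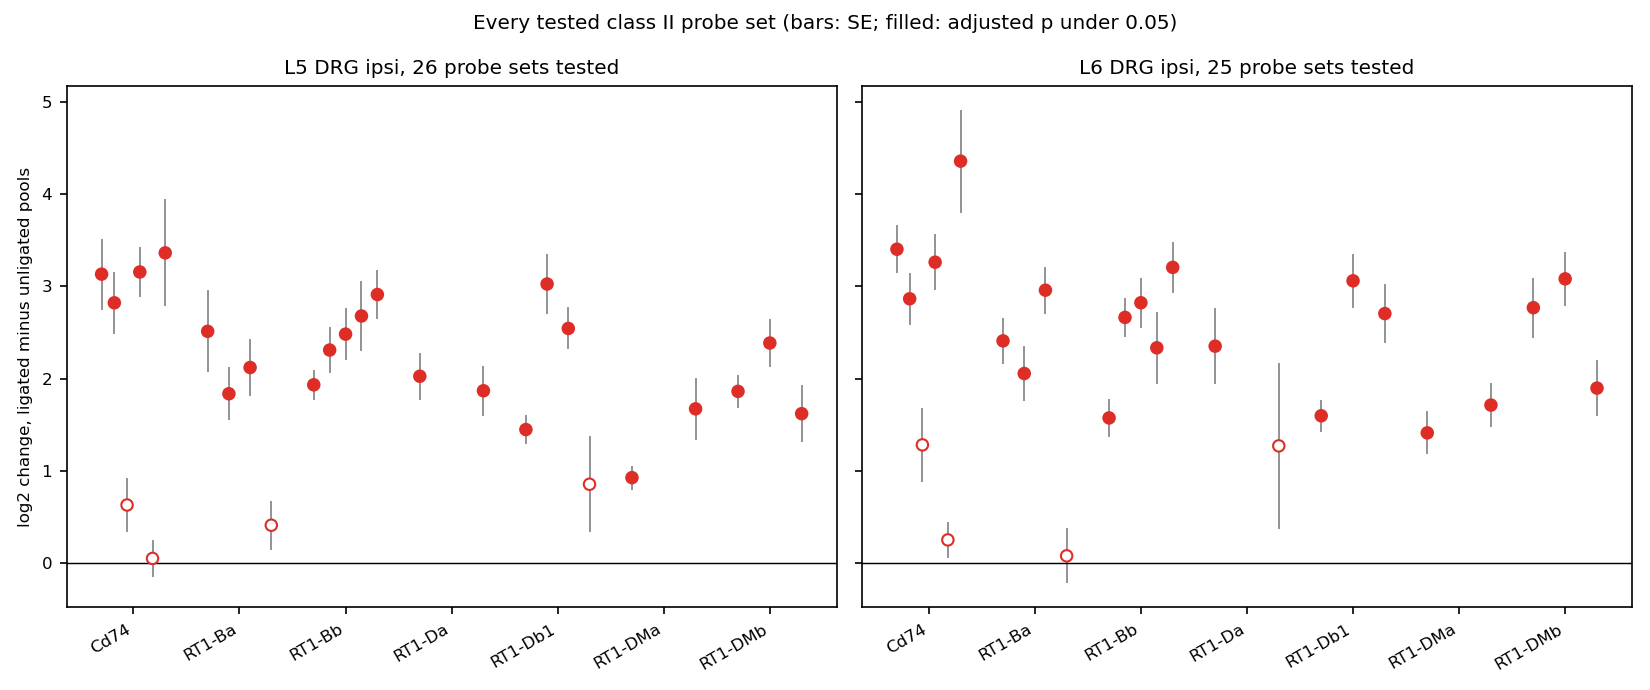
Each point is 1 probe set of the gene named on the horizontal axis, and the vertical axis is its log2 change between ligated and unligated pools in the ipsilateral L5 DRG (26 tested) and L6 DRG (25 tested), with standard errors and filled points for an adjusted p under 0.05. All points lie above 0, and Cd74 spreads widest, from 0.05 to 3.36 in L5 and from 0.25 to 4.36 in L6.

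Outside the ipsilateral L4 to L6 DRG the 7 genes had median log2 changes between −0.15 and 0.22, and 0 of 7 genes, and 0 of their probe sets, passed the limma test in each of the other 8 compartments. The share of all probe sets called was 4.87% in the ipsilateral nerve, 0.00612% in the contralateral L5 DRG, 0.0729% in the contralateral L6 DRG and 0% in the others. At an unadjusted p under 0.05 there was 1 of 7 in the contralateral L5 DRG, contralateral L6 DRG, contralateral nerve, ipsilateral cord and brain, where 8.43%, 10.6%, 4.78%, 2.71% and 2.59% of all probe sets were. There were 0 in the contralateral L4 DRG, ipsilateral nerve and contralateral cord, where 4.01%, 19.7% and 5.03% of all were.
In the ipsilateral sciatic nerve Cd74 had a signal of 509.5 in the naive pool, 551.5 in naive GPN, 1009 in the sham pool, 757.5 in SNL and 669.8 in SNL GPN. The ligated pools lay between the naive pools and sham, so the arms overlapped. RT1-Da ran the same way, with 390.7, 444.6, 769.7, 591.7 and 490.2. RT1-Db1, with 395.6, 511, 648.9, 572 and 451.2, was also highest in sham, and its SNL GPN pool lay below naive GPN. RT1-DMb went the other way, with 131.2 to 153.1 in ligated and 104.3 to 114.8 in unligated pools after normalisation over all 52 arrays. With normalisation within the compartment 1 of the 7 genes had both ligated pools above all unligated ones, as had 19.4% of all probe sets tested. The lowest limma adjusted p of the 7 genes in this nerve was 0.305.
In the ipsilateral spinal cord, which receives the central branches of the injured neurons, Cd74 had signals of 74.6, 57.4, 131.8, 121.4 and 164.7 in the same order. RT1-DMb had signals of 47.6, 68.5, 73.4, 78.6 and 124.1 there, with both ligated pools highest, as for 8.5% of all probe sets tested. The changes were 0.73 for Cd74 (unadjusted p = 0.0565) and 0.62 for RT1-DMb (unadjusted p = 0.042), and the limma adjusted p was 1 for all 7 genes.
In the contralateral nerve, with no SNL vehicle pool among the samples used here, RT1-Bb probe set 1 had a signal of 119.8 in naive, 145.7 in naive GPN, 174.5 in sham and 39.5 in SNL GPN. Its single ligated pool was the lowest, with a log2 change of −1.74 (limma adjusted p = 0.615, 1 against 3 pools). The other RT1-Bb probe sets did not share one direction there, at 0.22, 0.61 and 1.66 for probe sets 2, 3 and 5 and −2.003 for probe set 4.
In the brain RT1-Ba had a log2 change of −0.78 (unadjusted p = 0.00634, limma adjusted p = 1).

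**Figure D3:**
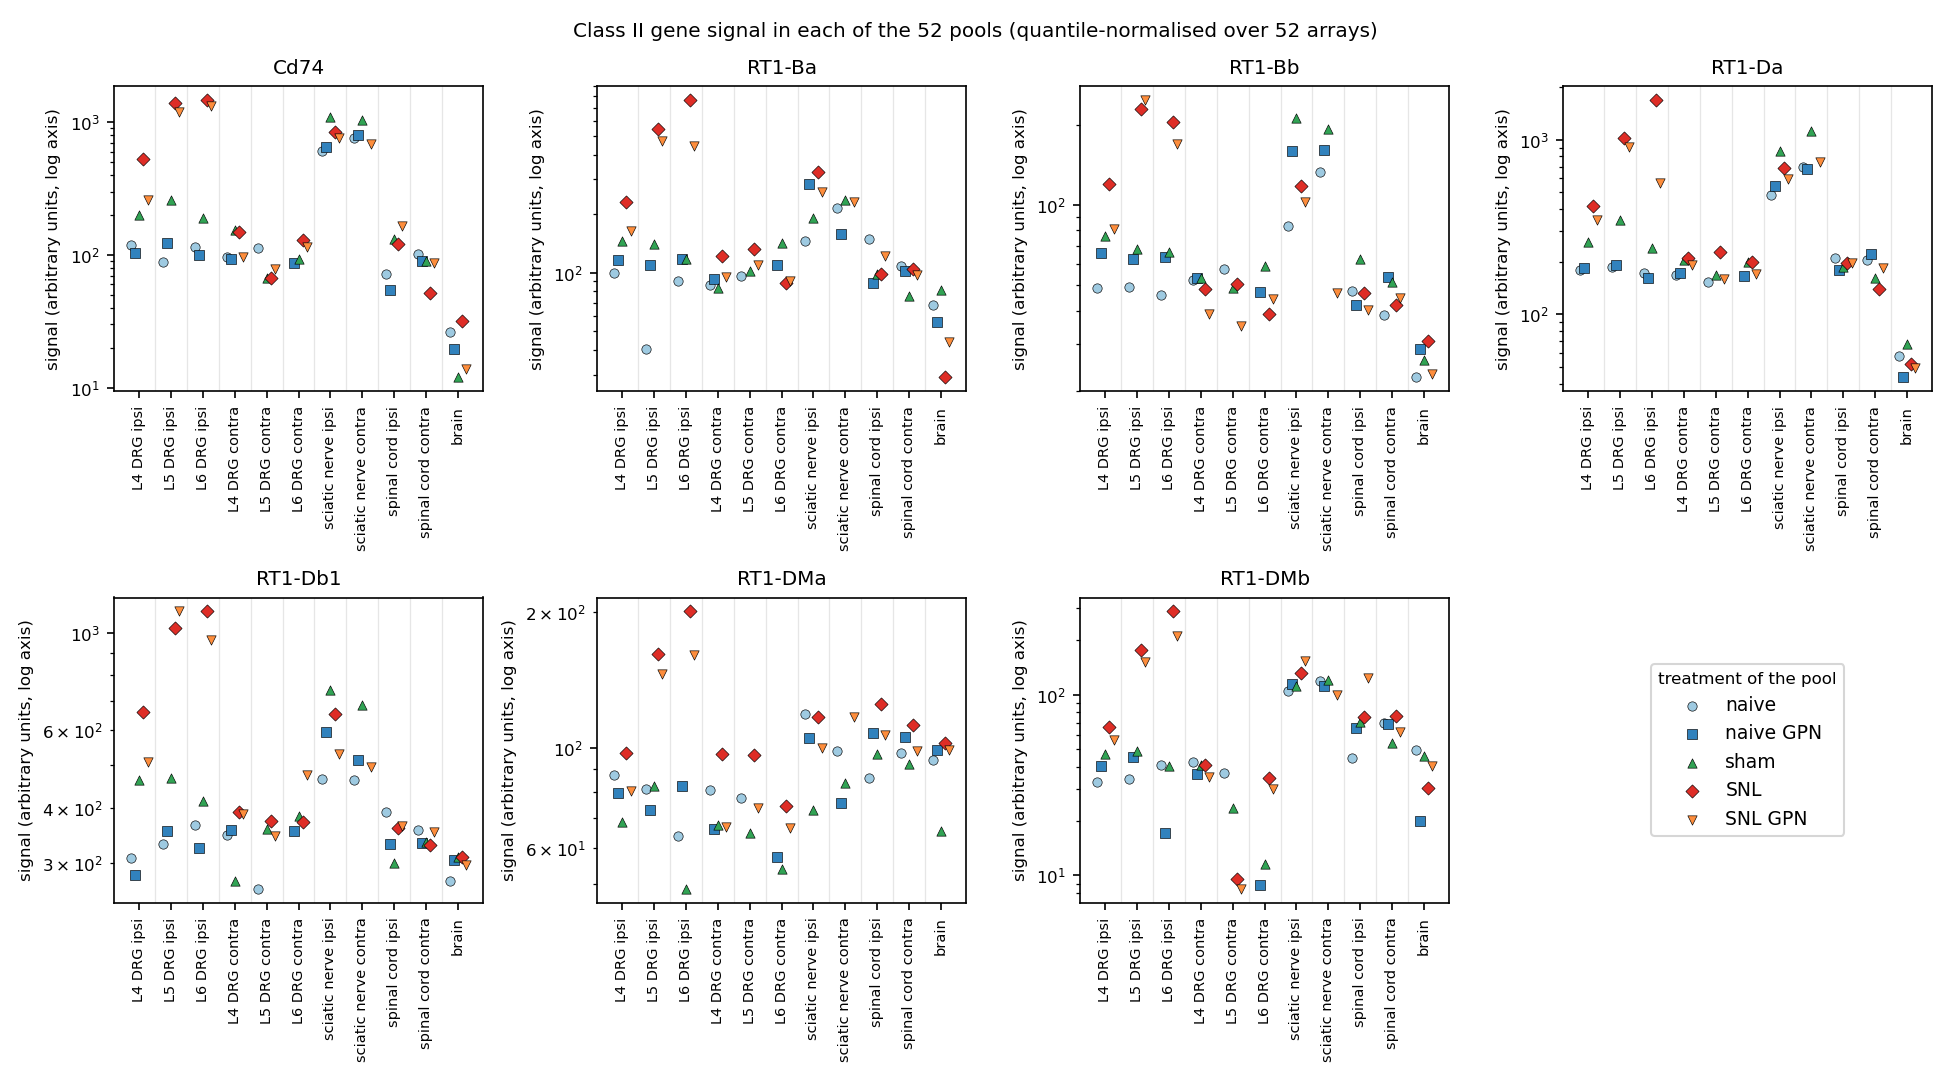
Signal in each of the 52 pools (vertical log axis, arbitrary units, normalised over all 52 arrays) is plotted by compartment (horizontal axis) for each of the 7 genes, with 1 symbol per treatment. The SNL and SNL GPN pools of the ipsilateral L5 and L6 DRG stand highest for Cd74, with means of 1294 and 1396, and the brain lies lowest.

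To compare ligation changes between compartments, log2 values of pools with the same treatment were subtracted and the result was tested. The member changes were larger in the L5 DRG than in its contralateral partner by a median of 2.25 on the log2 scale, and larger in the L6 DRG than in its partner by 1.72. They were larger in the L5 DRG than in the L4 DRG by a median of 1.28 and larger in L6 than in L4 by 1.44, with all 7 genes in that direction in both. In none of the 8 differences did a member pass (0 of 7), where 0% of all probe sets passed in 7 of them and 0.0167% in L6 minus L4. Limma adjusted p ranged from 0.236 to 0.274 for L5 against contralateral L5, from 0.206 to 0.38 for L6 against contralateral L6, from 0.126 to 0.205 for L5 against L4 and from 0.111 to 0.212 for L6 against L4. At an unadjusted p under 0.05 there were 7, 6, 7 and 7 of the 7 genes in these 4 differences, where 16.1%, 14.8%, 19.9% and 16.2% of all probe sets were. The 2 ligated levels differed little, with a median of −0.27 for L5 minus L6, 0 of 7 at an unadjusted p under 0.05, and the widest difference for RT1-DMb at −0.91. The L5 difference between sides has unbalanced gabapentin, since the contralateral L5 DRG had no naive GPN pool here, as the contralateral L6 DRG had no naive pool.

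The sham and naive pools were also set apart, with 1 pool each and therefore no test. In the ipsilateral L5 DRG all 7 genes had a higher signal in sham than in naive, by 0.03 to 1.70 on the log2 scale with a median of 0.49, and the largest difference was that of RT1-Ba. The naive GPN pool was also above naive for 6 of 7 genes there, with a median of 0.32. In the ipsilateral L4 DRG sham was above naive for 6 of 7 genes (median 0.53), in L6 for 5 of 7 (median 0.36), and in the ipsilateral nerve for 6 of 7 (median 0.71). In the contralateral nerve it was above naive for 6 of 7 as well (median 0.52), where Cd74 signals were 758.3 in naive and 1093 in sham. In the contralateral L4 and L5 DRG, by contrast, sham was above naive for 3 of 7 genes each. Against sham alone, the SNL pool was higher for all 7 genes in L5 by a median of 1.68, in L6 by 2.67 and in L4 by 0.64. In the nerve SNL exceeded sham for 3 of 7 genes, with a median of −0.18.

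Gabapentin was tested against vehicle with ligation as a covariate. The limma test called 0 of 7 genes in each of the 8 compartments with all 5 treatments and on their mean, where 0% of all probe sets were called, or 0.00603% in the contralateral cord. The mean over the 8 compartments had negative changes for all 7 genes, with a median of −0.09, and the lowest limma adjusted p was 0.999. At an unadjusted p under 0.05 there was 1 of 7 genes in the ipsilateral L4 DRG, 2 of 7 in the ipsilateral L6 DRG and 0 in the other 6 compartments, where between 1.23% and 5.02% of all probe sets were in each of the 8. These were Cd74 in the L4 DRG at −0.76, RT1-Da in the L6 DRG at −0.85 and RT1-DMb in the L6 DRG at −0.75.
Between the ligated pools alone, SNL GPN lay below SNL for all 7 genes in the L4 DRG (median −0.35) and in the L6 DRG (median −0.30), and for 5 of 7 in the L5 DRG (median −0.15). The widest of these were Cd74 in L4, at −1.05, and RT1-Da in L6, at −1.58. These differences are between single pools and have no replicate check. The contralateral L4 DRG had the same order for all 7 genes, with a median of −0.30.

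Without ligation the genes differed in level between tissues, with the sciatic nerve highest for 6 of the 7 and the brain lowest for 5. For this the sides, and the 3 DRG levels, were averaged within each of the naive, naive GPN and sham treatments after normalisation over all 52 arrays, giving n = 3 per tissue. The nerve pools also differed from the ganglia in other measures. Their 3′ to 5′ ratio of the GAPDH control probe sets, a sign of RNA integrity, was 1.60 to 7.38 in the unligated pools against 1.13 to 1.49 in the unligated DRG, apart from 3.17 in the contralateral L4 sham pool. Their summed muscle marker signal was 7495 to 38640 against 521.2 to 7104. The part of either in the tissue differences was not tested.
Cd74 had a mean signal of 828 ± 212 (SD, n = 3) in the nerve, 123 ± 32.7 in the DRG, 89.9 ± 19.3 in the cord and 19.3 ± 7.08 in the brain. Its order was nerve, then DRG and cord, which did not differ beyond their spread, then brain. RT1-Da followed the same order, with 732 ± 224, 194 ± 36.2, 194 ± 17.8 and 56.1 ± 11.9. RT1-Bb did too, with 156 ± 46.8, 57.0 ± 5.82, 49.1 ± 7.03 and 25.7 ± 3.13.
RT1-Ba had 204.5 ± 21.7 in the nerve, 104 ± 19.8 in the DRG, 103 ± 21.7 in the cord and 68.8 ± 12.9 in the brain. RT1-Db1 was flatter, with 578 ± 126, 350.3 ± 37.8, 341 ± 29.0 and 296 ± 19.9. RT1-DMb had 114 ± 2.08 in the nerve and was higher in the cord (62.04 ± 4.84) than in the DRG (34.1 ± 4.00). RT1-DMa probe set 1 ranged least, with 92.5 ± 15.3, 71.4 ± 6.86, 97.8 ± 8.07 and 86.2 ± 18.0. Its weaker probe set 2 did not share this, with 81.7 ± 13.02 in the nerve and 23.3 ± 4.83 in the DRG.
In the nerve against the DRG 6 of 7 genes passed the limma test upward, where 25.1% of 20160 probe sets did. The log2 difference was 2.74 for Cd74 (adjusted p = 4.13e-07), 1.86 for RT1-Da, 1.67 for RT1-DMb, 1.33 for RT1-Bb, 0.94 for RT1-Ba and 0.71 for RT1-Db1. RT1-DMa probe set 1 did not pass, at 0.34 (limma adjusted p = 0.0926), and on the deposited scale its difference was −0.23, while RT1-DMa probe set 2 rose by 1.69 (limma adjusted p = 0.00145). Over all 25 member probe sets tested, 19 were higher in the nerve than in the DRG and 1 was lower, Cd74 probe set 5 at −0.87 (limma adjusted p = 0.00465). On that scale the median of all probe sets was 0.50 lower in the nerve, and 4 of 7 genes passed, RT1-Ba and RT1-Db1 being lost. With arrays scaled to a common median, 7 of 7 passed, RT1-DMa at 0.46 (limma adjusted p = 0.0388).
In the cord against the DRG RT1-DMb alone passed of the 7 genes, at 0.84 (limma adjusted p = 0.0139), where 26.9% of probe sets were called. RT1-Bb probe set 3 was lower in the cord (−0.78, limma adjusted p = 0.0085), while its probe set 1 did not pass (−0.19, limma adjusted p = 0.529). In the brain against the cord 3 of 7 were lower, where 10.5% of all probe sets were. These were Cd74 at −1.92, RT1-Da at −1.70 and RT1-Bb at −0.79 (limma adjusted p = 4.73e-05, 3.17e-05 and 0.0097). The weaker RT1-Bb probe sets 2 to 5 did not pass, at −0.22 to −0.46 (limma adjusted p of 0.14 to 0.701). RT1-Ba, at −0.53, and RT1-DMb, at −0.68, missed the threshold (limma adjusted p = 0.0506 and 0.051), and each had another probe set, probe set 2, that passed downward. Over the 25 probe sets 10 were lower in the brain and 0 higher. In the nerve against the cord 6 of 7 genes were higher, where 24.8% of all probe sets were, and RT1-DMa was not (−0.09, limma adjusted p = 0.667), although its probe set 2 was (1.02, limma adjusted p = 0.0302). On the deposited scale RT1-DMa probe set 1 was lower in the nerve than in the cord (−0.58, limma adjusted p = 0.00967). RT1-Db1 (0.41, limma adjusted p = 0.0959) and RT1-DMb (0.36, limma adjusted p = 0.19) did not pass on that scale.
After normalisation over all 52 arrays the ligated L5 and L6 DRG had mean Cd74 signals of 1294 and 1396. These were above all groups of sciatic nerve pools, whose means ran from 689.4 to 868. The ligated L4 DRG came next, at 394.8. RT1-Ba, RT1-Db1 and RT1-DMa also lay above every nerve pool in both ligated ganglia. RT1-Da (562.1 to 1686 in L6), RT1-Bb (168.7 to 203.9 in L6) and RT1-DMb (151.4 to 176.2 in L5) overlapped nerve pools. Their highest nerve values were 1118, 211 and 153.1.

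**Figure D4:**
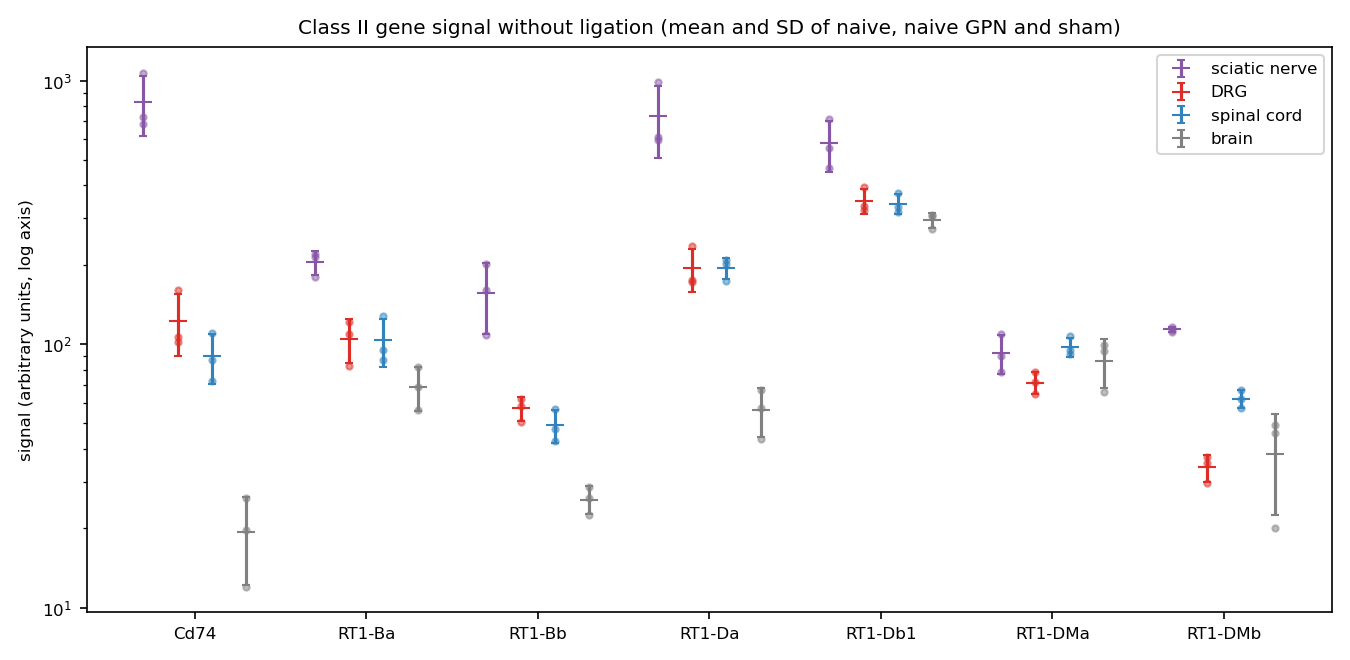
Mean signal (vertical log axis, arbitrary units) with SD over the naive, naive GPN and sham treatments is plotted for each gene (horizontal axis) in sciatic nerve, DRG, spinal cord and brain. Cd74 spans the widest range, from 828 in the nerve to 19.3 in the brain, and RT1-DMa, as read by its probe set 1, the narrowest, from 71.4 to 97.8.

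Some other genes of the class II pathway rose in the ligated ganglia. Of all probe sets 6.75% rose and 8.88% fell in L5, and 4.37% rose and 4.22% fell in L6. A single call weighs heavily in lists as short as those below. Of 10 tested genes for class II processing and peptide exchange, 3 rose and 2 fell in the L5 DRG and 3 rose and 0 fell in the L6 DRG, with median log2 changes of 0.33 and 0.29. Ctss, the protease cathepsin S that trims the invariant chain, rose by 1.81 in L5 (limma adjusted p = 0.00629) and 2.26 in L6 (limma adjusted p = 0.00208). Ifi30, a reductase that opens disulfide bonds of antigens in lysosomes, rose by 0.94 (limma adjusted p = 0.00434) and 1.15 (limma adjusted p = 0.019). Ctsh rose by 0.66 in L5 and Ctsc by 1.75 in L6, while the lysosomal protease gene Ctsd changed by −0.47 in L5 (limma adjusted p = 0.0373).
Of 13 tested genes for class II transcription and interferon gamma signalling, 2 rose in L5 and 3 in L6 and 0 fell, with medians of 0.51 and 0.52. Irf8, an interferon regulatory factor of myeloid cells, rose by 1.13 (limma adjusted p = 0.00561) and 1.23 (limma adjusted p = 0.0216). Ifngr2, a chain of the interferon gamma receptor, rose by 0.86 in L5, and Irf1 and Jak2 rose by 0.94 and 0.89 in L6. Ciita itself had changes of 0.60 in L5 (limma adjusted p = 0.0686) and 0.52 in L6 (limma adjusted p = 0.237), with means of 36.5 and 24.5 in the ligated and unligated L6 pools.
Of the costimulation and T cell recognition list 1 of 4 tested genes rose in L5 and 1 of 5 in L6, in both cases Icam1, an adhesion molecule of the contact with T cells, by 0.77 and 1.01. Cd4, the coreceptor for class II, had a change of 0.57 in L5 (limma adjusted p = 0.0602). Of the MHC class I presentation list 3 of 18 tested genes rose in L5 and 0 of 19 in L6, with medians of 0.35 and 0.22. The 3 were RT1-A1, a class I heavy chain gene (0.64), the proteasome activator gene Psme2 (0.55) and RT1-CE5 (0.40). In the L4 DRG 0 genes of these 4 lists passed the limma test. In the ipsilateral nerve 0 passed in the processing, costimulation and class I lists and 1 rose in the transcription list. Of all probe sets 0.0418% were called in the L4 DRG and 4.87% in this nerve.

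Macrophage and microglia markers also rose in the ligated L5 and L6 DRG. The arrays held 22 of them, of which 12 of 18 tested rose in the L5 DRG and 11 of 19 in the L6 DRG, with 0 falling and medians of 1.26 and 1.40. Of all probe sets 6.75% rose in L5 and 4.37% in L6. C1qb and C1qa, parts of complement C1q made by macrophages, rose by 2.68 and 2.00 in L5 and by 2.62 and 2.21 in L6. Lyz2, a lysozyme of myeloid cells, rose by 1.80 and 2.31, Gpnmb by 2.14 in L5 and Laptm5 by 2.38 in L6. In the L4 DRG 0 of 16 passed (median 0.18), in the ipsilateral nerve 2 of 20 rose and 1 fell (median 0.51), and in the ipsilateral cord 0 of 18 passed (median 0.48). Of all probe sets 0.0418%, 4.87% and 0% were called in these 3 compartments. The members had medians of 0.70, 0.12 and 0.10 there, so the 2 lists differed in these compartments.
The summed signal of the 22 markers in the L5 DRG was 2803 to 3579 in the unligated and 5529 to 5735 in the ligated pools, beside 970.2 to 1695 and 5049 to 5428 for the sum of the 7 members. In the L6 DRG the markers summed to 1440 to 2294 and 4334 to 5340, and the members to 848.1 to 1087 and 3844 to 5823. In the L4 DRG the markers summed to 2712 to 3110 and 3241 to 3693, and the members to 926.6 to 1347 and 1612 to 2289. In all 3 levels neither sum overlapped between the arms, and in the L5 DRG sham was the highest unligated pool in both, at 3579 and 1695. The part of macrophage content in the member changes was not tested.
Of the 5 dendritic cell markers on the arrays 0 rose in L5 or L6, Flt3 fell by 0.88 in L5, and the sums in L5 were 144.1 to 163 in unligated and 138.4 to 139 in ligated pools. Of 4 B cell markers on the arrays 1 was tested in L5 and did not pass, and the sums were 57.97 to 61.2 and 60.9 to 69.8. In the L6 DRG the B cell sums were 34.2 to 58.7 in unligated and 45.8 to 149.8 in ligated pools, and in the L4 DRG 35.6 to 52.2 and 68.0 to 79.1 without overlap. The part of B cells in the member values was not tested. Cd79a, Ighm, Itgax and Adgre1 were not analysed here. Of the T and NK cell markers, 7 were tested in L5, of which Gzmb rose by 0.82 and Thy1, also a neuronal gene, changed by −0.77.
Neuron markers fell in both ligated ganglia, 9 of 14 tested in L5 and 9 of 15 in L6, with medians of −0.73 and −1.49. Of all probe sets 8.88% and 4.22% fell there. Endothelial and fibroblast markers rose for 5 of 11 in L5 and 3 of 12 in L6, where 6.75% and 4.37% of all probe sets rose. Skeletal muscle markers varied widely between L5 pools, with sums of 1107 to 5822 in unligated and 3616 to 11860 in ligated pools. With their mean as a covariate all 7 members passed in both L5 and L6. That fit rested on few pools, and the part of muscle in the member changes was not tested. The 3′ to 5′ GAPDH ratio was 1.13 to 1.26 in the unligated L5 pools and 1.01 to 1.05 in the ligated ones. It was 1.21 to 1.49 and 1.08 to 1.10 in L6, and 1.29 to 1.34 and 1.12 to 1.16 in L4, so it was lower in the ligated pools of all 3 levels, and its part was not tested.

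**Figure D5:**
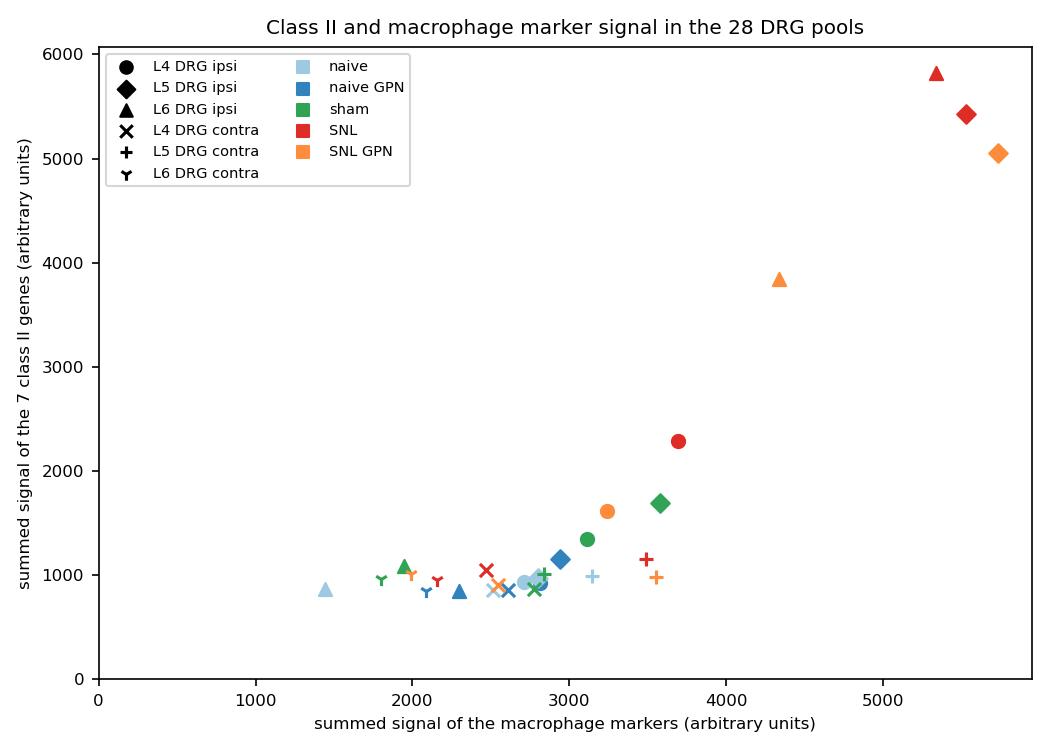
Summed signal of the 7 class II genes (vertical axis, arbitrary units) is plotted against summed signal of the macrophage markers (horizontal axis, arbitrary units) for the 28 DRG pools, with the shape of a point for the ganglion and its colour for the treatment. The 4 ligated L5 and L6 pools lie apart at member sums of 3844 to 5823 and marker sums of 4334 to 5735.

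The members resembled each other across pools to different degrees. Over the 52 pools, on the log2 scale with arrays scaled to a common median, Pearson r with the mean of the other 6 members was 0.959 for Cd74, 0.953 for RT1-Da, 0.920 for RT1-Bb and RT1-Ba, 0.885 for RT1-Db1, 0.790 for RT1-DMb and 0.607 for RT1-DMa. Over the 28 DRG pools alone RT1-DMb reached 0.921 and RT1-DMa 0.858. These values describe pools that share arrays, tissues and possibly rats, and have no p-value.
Outside the members, the genes most like the mean of the 7 over the 52 pools were Tspo (0.947), Ifitm3 (0.922), Ifi47 (0.920), Lyz2 (0.916), Ifi30 (0.910), C1s, Mgp, Glipr1, Myl12a and Clec4a3 (0.894). Tspo is a mitochondrial membrane protein gene, and Ifitm3 and Ifi47 are interferon-inducible genes. Over the 28 DRG pools they were Gal (0.966), Gadd45a (0.963), Atf3 (0.962), Npy (0.962), Vip (0.959), Ifitm3, Ccl6, Lyz2, Ctss and Apod (0.949). All 10 of these rose after ligation in the ipsilateral L5 and L6 DRG, as the members did. The likeness over the DRG pools therefore partly repeats the ligation contrast. Gal, Npy and Vip encode neuropeptides and Atf3 a transcription factor known to be induced in sensory neurons after axon injury. Of the 10 genes of each set, Ifitm3 and Lyz2 were in both.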

How the data were processed

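Total RNA of 52 pools was measured on 3 arrays each. The authors deposited linear intensity per probe set, made with MAS5 per the submitters' processing notes. Its version and scaling target are not stated there. Intensities were quantile normalised within array type and compartment, or over the 52 arrays of a type for tissue levels, and taken as log2(signal + pseudocount), where the pseudocount was each array type's 20th percentile (5.8 for A, 4.5 for B, 6.2 for C). Such changes understate those of weak genes. Probe sets above the 40th percentile of their array in at least 2 pools of a comparison were tested, two-sided, with limma 3.58.1 (eBayes with a trend) in R 4.3.3, which was checked on simulated data. Contralateral L5 and L6 DRG had 2 unligated pools each, and the contralateral nerve 1 ligated pool.

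Gene symbols came from the platform annotation, updated through a RefSeq table of GRCr8. All member probe sets entered the tests, and probe sets other than probe set 1 are given for the ligated ganglia and tissue levels and as counts elsewhere, except for gabapentin. Of each gene list, up to 4 genes past the threshold with the largest changes in a compartment were named, with Ciita, Cd4 and the neuron, muscle and T cell values added after they were seen. The 10 genes most like the members were those with the highest Pearson r. Members and lists were chosen with earlier results of these data known. The number of arrays limits the precision. The alternatives were other scalings, pseudocounts and filters, a shared spread, no trend, covariates, left-out pools, sham alone, and the mean over probe sets.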

Additional observations from a re-analysis of the deposited data

Results flagged for a closer look

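Both members below were picked out because every ligated pool moved one way in one compartment and the opposite way in another. The differences themselves were not tested. Such separation of the arms was common with so few pools. Ligated pools lay above all unligated pools for 18.2% of all probe sets tested in the contralateral L5 DRG, and below for 18.4%. These shares were 18.3% and 20.4% in the contralateral L6 DRG and 10.6% and 12.1% in the contralateral L4 DRG. RT1-DMb probe set 1 had a log2 ligation change of −1.34 in the contralateral L5 DRG and 1.22 in the contralateral L6 DRG, a difference of −2.56. Its signals in the L5 DRG of that side were 53.0 in naive, 34.4 in the sham pool, 14.3 in SNL and 12.7 in SNL GPN, and in the L6 DRG 10.4 in naive GPN, 13.4 in the sham pool, 37.5 in SNL and 33.1 in SNL GPN. The limma adjusted p was 0.342 and 0.211, and RT1-DMb probe sets 2 and 3 were too weak there to be tested. Probe set 1 was itself weak in the ligated L5 and unligated L6 pools, beside a pseudocount of 5.8. On the deposited scale its changes were −0.83 and 0.39. Array A medians were 44.2 to 62.2 in ligated and 32 to 37.9 in unligated contralateral L5 pools. In the contralateral L6 DRG they were 19.9 to 23.6 and 35.9 to 55.1. The part of array scale was not tested.

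RT1-Ba probe set 1 had a log2 ligation change of −0.44 in the contralateral L6 DRG, against 0.29 in the contralateral L4 DRG and 0.26 in the contralateral L5 DRG, differences of 0.74 and 0.70. RT1-Ba signals in the contralateral L6 DRG were 112.8 in naive GPN, 145.9 in the sham pool, 92.0 in SNL and 93.8 in SNL GPN. Its probe sets 2, 3 and 4 changed by 1.04, −0.03 and −0.83 there.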

How the results depend on the processing

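All 7 genes kept a positive change in the ipsilateral L4, L5 and L6 DRG under each alternative run, and 0 changes reversed while past the threshold in any compartment. Outside these DRG few changes passed in any setting, so a sign could differ without counting as reversed. Signs differed there in 6 of 105 alternative values in the contralateral nerve, up to 19 of 133 in the ipsilateral nerve. In the L5 DRG 7 genes passed, 6 to 7 with 1 pool left out, and 0 with sham as the only unligated pool (limma adjusted p 0.0787 to 0.126). In the L6 DRG 7 passed, 5 to 7 with 1 pool left out, 5 with sham as the only unligated pool, and 1 on the deposited scale. Without the SNL pool RT1-Ba missed the threshold in L5 (adjusted p = 0.0787) and RT1-Bb and RT1-DMa in L6 (0.063 and 0.116), and without the naive pool RT1-Da did in L6 (0.0539), as it did with the mean of all probe sets of a gene (1.81, adjusted p = 0.135). Probe sets called on all arrays numbered 2617 in L5, 787 to 1873 with 1 pool left out and 0 to 3078 otherwise. In L6 they numbered 1451, 280 to 1390 and 86 to 2798, with 946 without a filter and 304 with sham alone.

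On the deposited scale 2 genes passed in the L4 DRG, 1 in the contralateral L6 DRG (RT1-Ba, −1.15), and 1 in each of the differences L5 against contralateral L5, L6 against contralateral L6 and L5 against L4. With 1 spread over all compartments 1 passed in the contralateral L5 DRG (RT1-DMb, −1.34) and 1 in the contralateral nerve (RT1-Bb). RT1-Bb was also the 1 gene called in that nerve with the muscle markers as a covariate, and without the naive pool (0 to 1 genes with 1 pool left out). The share of calls that rose was 43.2% in L5, 15.2% on the deposited scale and 24.3% with a common median, and in L6 50.9% against 27.9% on the deposited scale. The cause of these shifts was not tested. An alternative added after the data were seen normalised an array type only in compartments where its arrays differed in scale. In L6 and L4 every array type did. The alternative therefore repeated the main fit there, and its counts of 7 and 0 genes are no separate check. In L5 array A alone was left without normalisation, and 7 genes were called. The labels number no replicates, and each treatment had 1 pool per compartment, so no replicate block could be fitted. Gabapentin as a covariate left 7 genes called in both L5 and L6. The small number of pools limits every value.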
